A study of Mus musculus with 30 samples.

Results

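CD4+ T cells were compared with CD11c+ cells of unimmunised mice, on 6 of the 30 microarrays of the series. The CD4 preparation and the CD11c preparation each had 3 arrays, chosen by their labels alone, and both came from lymph nodes pooled with spleen. The CD4+ T cells were isolated by magnetic negative selection, which leaves the wanted cells untouched and removes others with antibodies. The CD11c+ cells were pulled out with microbeads against CD11c, the integrin alpha X chain that marks dendritic cells and some macrophages. The submitters state a purity over 90% for both preparations. All mice were DO11.10 RAG2-/- animals on the BALB/c background, 8 to 10 weeks old. RAG2 is needed to rearrange antigen receptor genes, so mice without it make no receptors of their own and no mature B cells, and their T cells carry DO11.10, a transgenic receptor that recognises an ovalbumin (OVA) peptide. The other 24 arrays held the same cell types, 3 arrays each, from mice tolerised with OVA in the drinking water, from mice primed with 100 micrograms of OVA in CFA (complete Freund's adjuvant), and from primed mice treated at 10 mg/kg with control IgG or with abatacept, a CTLA-4 fusion protein that binds CD80 and CD86. The primed groups were examined 10 days after immunisation.

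The CD4+ helper T cell reads peptide on MHC class II molecules through its T cell receptor. The receptor signals through the CD3 and zeta chains, and CD4 itself binds class II from the side. Conventional dendritic cells take up protein, cut it in lysosomes, load the peptides on class II with the help of the H2-DM and H2-O molecules, and carry ligands such as CD80 and CD86 for the costimulatory receptors of the T cell. The spleen holds further CD11c-bearing and adherent cells, among them red pulp macrophages, which break down old red cells. In the mouse the spleen is also a site of blood formation, with precursors of red cells and granulocytes.

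All values are log2 levels, given for replicates 1, 2 and 3 in that order, and a difference is the CD4 mean minus the CD11c mean on that scale. The 6 arrays had median levels between 4.5 and 4.54, and a level below them was not shown to be above background, so a difference against such a level is not exact. Levels of different genes are not compared, since each probe set has a scale of its own. Across all probe sets the CD4 arrays correlated with each other at 0.992 to 0.994, the CD11c arrays at 0.991, and arrays of different preparations at 0.944 to 0.956, which is a description over probe sets that are not independent. The leading principal component of the 6 arrays held 90.8% of their variance. Replicate 2 of CD11c stood apart from the other 5 arrays by genes of salivary glands, which are given below. Without that array 6543 genes were called in place of 6923, and leaving out any 1 of the 6 arrays gave 6472 to 6714. The labels do not say that the 3 replicates came from separate mice, and the p-values then rest on a spread between samples that may be technical.

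Of 17097 genes measured, 9914 were tested, those whose level exceeded the median of its array on 3 or more of the 6. At an adjusted p under 0.05 (limma over all 30 arrays, Benjamini-Hochberg adjustment over the 9914 genes), 6923 differed between the preparations, which is 69.8% of those tested. In CD4 arrays 4090 genes were higher, 41.3% of those tested, and 2833 were lower, 28.6%. At least 2-fold differences were called for 1055 genes higher in CD4 arrays, 10.6%, and for 1152 lower, 11.6%. The values of the 3 CD4 arrays and the 3 CD11c arrays did not overlap for 7016 genes, 70.8%. The median difference over all genes tested was 0.11. Because so much of the measured transcriptome differed, the counts of members called below are read against these shares. A gene above the median in 1 preparation alone passed the filter through it, so counts among tested members describe the lists and do not measure them against other genes.

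**Figure D1:**
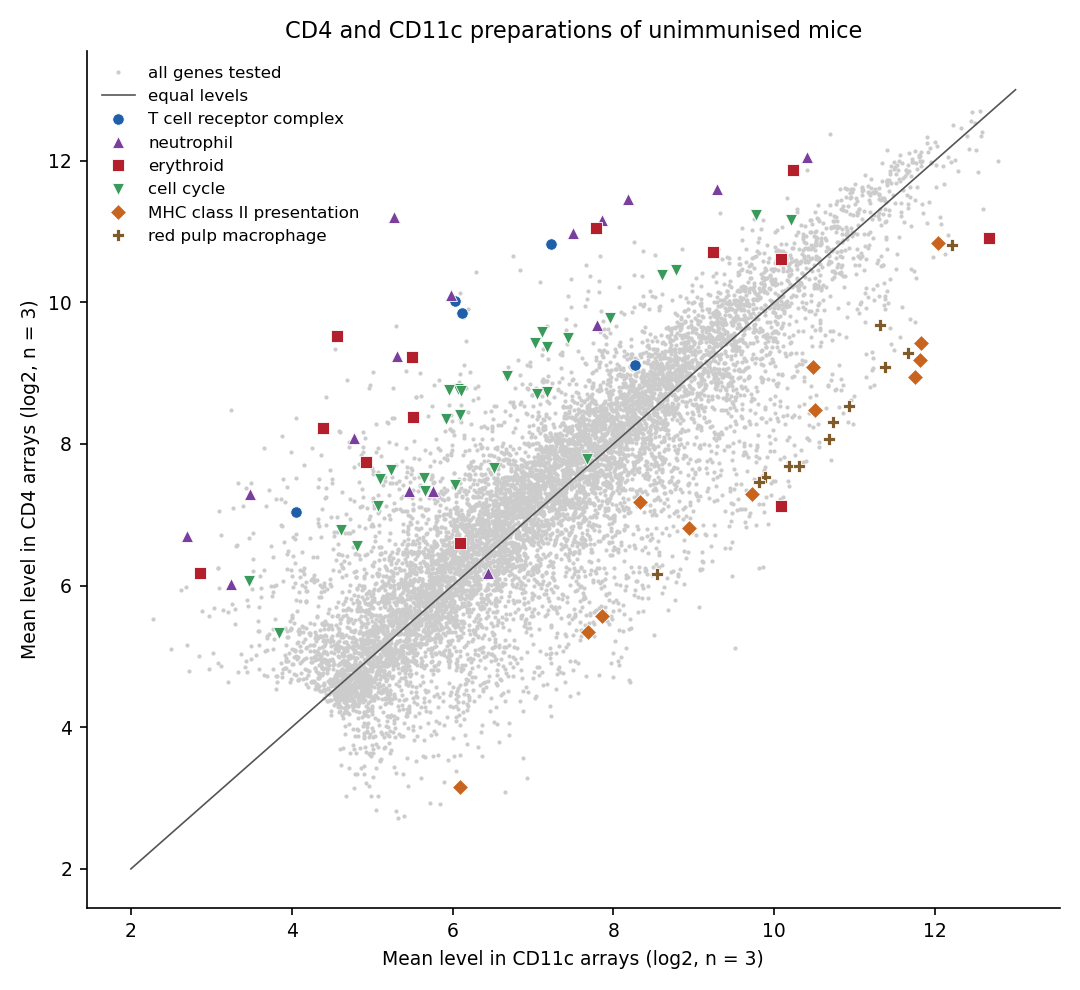
Mean log2 level of each tested gene in the 3 CD11c arrays (horizontal axis) and the 3 CD4 arrays (vertical axis) of unimmunised mice, with the members of 6 lists marked and the line of equal levels drawn. T cell receptor, cell cycle and, apart from Csf3r, neutrophil genes lie above the line, class II and red pulp macrophage genes below it, and erythroid genes on both sides.

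Genes of the T cell receptor complex were higher in CD4 arrays, as the label of the preparation requires. All 5 measured members were called higher, with a median difference of 3.60. Cd3e, a signalling chain of the receptor, read 10.89, 10.87 and 10.69 in CD4 arrays, against 6.96, 6.83 and 7.88 in CD11c arrays. The groups did not overlap, and the difference was 3.6 ± 0.24 (SE, adjusted p = 8e-12 by limma), which puts the CD11c level at 8.27% of the CD4 level. Cd3g, the gamma chain, read 10.0, 10.05 and 9.99 in CD4 arrays, against 5.97, 5.39 and 6.74 in CD11c arrays. The difference was 3.98 (adjusted p = 2.4e-13). Cd3d, the delta chain, differed by 3.73. In the CD11c arrays these 3 genes were highest in replicate 3 and lowest in replicate 2. Trat1, an adaptor that stabilises the complex at the surface, differed by 2.98. Cd247, the zeta chain, read 9.06, 9.23 and 9.04 in CD4 arrays, against 8.23, 8.15 and 8.42 in CD11c arrays, and its difference of 0.84 was the smallest of the 5. Natural killer cells also use the zeta chain, and their genes were present in both preparations, as given below, with a part in this result that was not tested.

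Of 13 tested coreceptors and surface markers, 10 were higher in CD4 arrays, 2 were lower and 1 was not called. Thy1, a surface glycoprotein of T cells, read 10.99, 11.05 and 11.01 in CD4 arrays, against 7.85, 7.19 and 8.39 in CD11c arrays. Cd27 differed by 3.1 and Cd28, the receptor of CD80 and CD86, by 3.08. Neither gene overlapped between the preparations. Cd4 had a small difference for the gene that names the preparation, with 9.53, 9.47 and 9.31 in CD4 arrays, against 7.89, 8.0 and 8.34 in CD11c arrays. It was 1.36 higher (adjusted p = 2.1e-09), which leaves the CD11c arrays at 39% of the CD4 level. Subsets of mouse dendritic cells carry CD4 on their surface. The CD8 chains ran in opposite directions. Cd8a, the alpha chain, which cross-presenting dendritic cells of the mouse spleen also express, read 5.46, 4.83 and 5.23 in CD4 arrays, against 7.29, 7.33 and 7.71 in CD11c arrays and was lower by -2.27 (adjusted p = 3.9e-06). Cd8b1, the beta chain, which marks CD8+ T cells, read 7.5, 7.34 and 7.43 in CD4 arrays, against 5.3, 4.99 and 5.12 in CD11c arrays and was higher by 2.29 (adjusted p = 2.3e-11). Btla, an inhibitory receptor of lymphocytes and dendritic cells, was -0.59 in difference, lower in CD4 arrays. Icos, which T cells gain on activation, read 7.04, 7.11 and 7.0 in the CD4 arrays and 7.13, 7.08 and 7.17 in the CD11c arrays, and the difference of -0.08 was not called (adjusted p = 0.66; 95% interval -0.40 to 0.24). Ctla4 lay below the median in all 6 arrays, with means of 3.55 in CD4 and 3.66 in CD11c arrays, and was not tested.

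**Figure D2:**
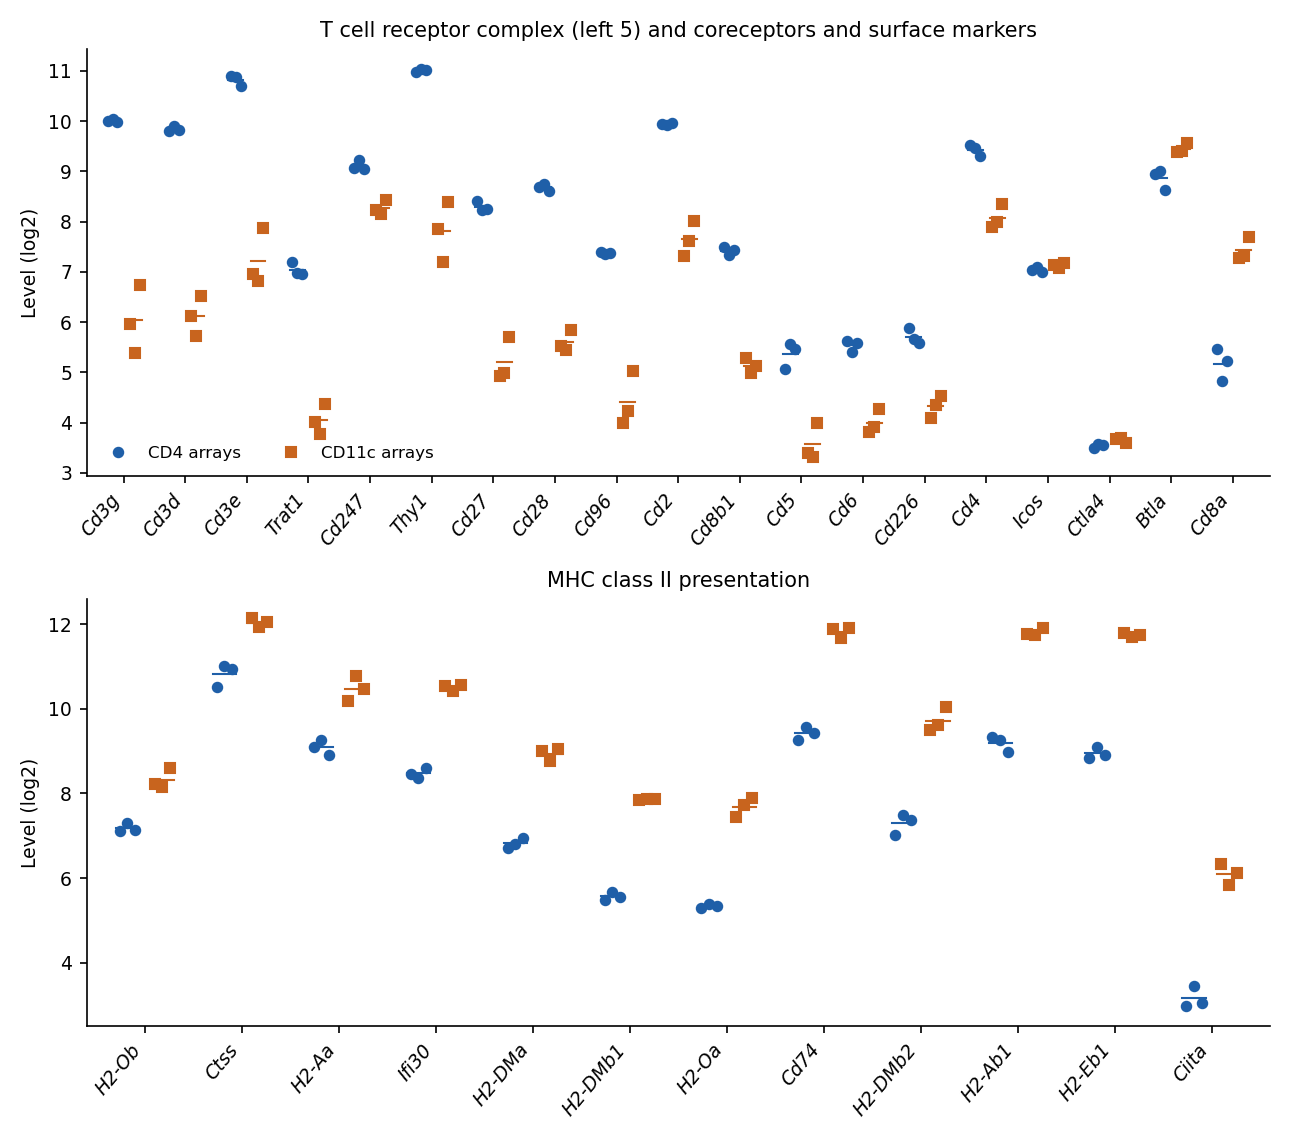
Log2 level of each measured gene of the T cell receptor complex and T cell surface list (upper panel) and of the class II list (lower panel) in the 3 CD4 arrays (circles) and 3 CD11c arrays (squares), with bars at the means. The T cell genes mostly lie higher in CD4 arrays, with Cd8a and Btla the other way round and Icos level, and all class II genes lie lower.

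Of 14 tested signalling molecules that act next to the receptor, 11 were higher in CD4 arrays and 3 lower. Themis, a T lineage signalling protein, read 9.04, 8.83 and 8.83 in CD4 arrays, against 4.24, 4.3 and 5.52 in CD11c arrays, a difference of 4.22 (adjusted p = 1.4e-10). Lat, the scaffold that the receptor kinases phosphorylate, differed by 3.72, the adaptor Skap1 by 3.07 and the kinase Prkcq by 2.8. Zap70, the kinase that docks on the CD3 and zeta chains, differed by 2.02. Cd40lg, the ligand with which helper T cells license dendritic cells, read 7.42, 7.07 and 6.78 in CD4 arrays, against 3.44, 2.73 and 3.66 in CD11c arrays. The 3 lower genes were Fyn (-0.57), the adaptor Lcp2 (-0.86) and the phosphatase Ptpn22 (-1.43), all of which are also used by myeloid cells.

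Transcription factors of the T lineage were called higher for 12 of 15 tested, and 0 were called lower. Lef1, which acts in T cell development and memory, read 8.08, 7.94 and 7.82 in CD4 arrays, against 3.81, 2.76 and 4.4 in CD11c arrays. Its difference of 4.29 was the largest of the list. Bcl11b, which holds cells in the T lineage, read 10.59, 10.88 and 10.49 in CD4 arrays, against 6.64, 6.25 and 7.38 in CD11c arrays, a difference of 3.9 (adjusted p = 1e-11). Gata3 differed by 2.26, Satb1 by 2.03 and Ets1 by 1.71. Zbtb7b, the factor that commits thymocytes to the CD4 lineage, differed by 0.35 (adjusted p = 0.039), with overlapping arrays. That call was lost without replicate 1 or 2 of CD4 or replicate 2 or 3 of CD11c (adjusted p of 0.071 to 0.28). Myb, which is shared by immature cells of all blood lineages, differed by 3.95. Foxp3, the factor of regulatory T cells, read 6.91, 6.98 and 7.16 in the CD4 arrays and 6.75, 6.55 and 6.89 in the CD11c arrays, and its difference of 0.29 was not called (adjusted p = 0.39). Runx1 (0.19) was not called, but passed without replicate 3 of CD4 or of CD11c (adjusted p = 0.025 and 0.023 by limma). Foxo1 (0.19) passed without replicate 2 of CD4 (adjusted p = 0.025).

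The naive T cell programme of homing and quiescence gave 9 higher, 1 lower and 2 not called of 12 tested. S1pr1, the receptor with which lymphocytes leave lymph nodes, read 9.75, 9.69 and 9.53 in CD4 arrays, against 5.5, 5.22 and 5.19 in CD11c arrays, a difference of 4.36 (adjusted p = 1.2e-16). Klf2, the factor that drives S1pr1 in resting T cells, differed by 1.89, and Foxp1, which keeps naive T cells quiescent, by 1.47. Cd69, which opposes S1pr1 on the surface and marks recent activation, was also higher, by 2.7. Il6ra was the lower member (-0.39). Genes of activation and memory went both ways, with 5 higher and 6 lower of 13 tested. Izumo1r, which encodes FR4, a marker of regulatory and unresponsive T cells, differed by 2.11, Gzmb by 2.21 and Ifng by 1.61. Natural killer genes were readable in both preparations, as given below, and the part of those cells in Gzmb and Ifng was not tested. Lower in CD4 arrays were Lag3 (-1.53), Tnfrsf9 (-1.11), Nr4a1 (-0.97), Cxcr3 (-0.90), and Egr2 (-0.72). Cd44, the hyaluronan receptor of memory cells, was the sixth (-0.25), and was not called without replicate 2 or 3 of CD4 or replicate 1 or 3 of CD11c (adjusted p of 0.058 to 0.15).

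Antigen presentation on class II set the CD11c arrays apart. All 12 genes of the list were tested and all were lower in CD4 arrays, by -1.14 for H2-Ob to -2.95 for Ciita, with a median difference of -2.31. H2-Ab1, the beta chain of I-A, read 9.32, 9.27 and 8.98 in CD4 arrays, against 11.77, 11.75 and 11.91 in CD11c arrays. It was lower by -2.62 (adjusted p = 1.5e-08). H2-Eb1, the beta chain of I-E, read 8.84, 9.09 and 8.92 in CD4 arrays, against 11.8, 11.71 and 11.75 in CD11c arrays, a difference of -2.8. Cd74, the invariant chain that fills the groove until peptide arrives, read 9.26, 9.58 and 9.43 in CD4 arrays, against 11.9, 11.68 and 11.91 in CD11c arrays, a difference of -2.4. Ciita, the coactivator that switches class II genes on, read 2.96, 3.45 and 3.04 in CD4 arrays, against 6.33, 5.84 and 6.12 in CD11c arrays. Its CD4 level lay below the array median, so its difference of -2.95 rests on a level not shown to be above background. The peptide editors differed by -2.29 for H2-DMb1, -2.12 for H2-DMa and -2.34 for H2-Oa. Ifi30, the lysosomal thiol reductase, differed by -2.03, and Ctss, the protease that trims the invariant chain, by -1.21. Resting mouse T cells make little class II, yet H2-Aa read 9.1, 9.26 and 8.91 in CD4 arrays, and the median CD4 level over the 12 genes was 20.1% of the CD11c level.

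Class II promoters carry an X box, bound by RFX, and a Y box, bound by NF-Y, on which CIITA assembles. The promoters of 4 class II genes that were lower in CD4 arrays are printed because all of them show the same Y box letters. They run from 250 bases before to 50 bases after the start of the gene, from RefSeq on GRCm38.p6, at chr17:34287774-34288073 on the minus strand and at chr17:34305617-34305916, chr17:34152941-34153240 and chr17:34092129-34092428 on the plus strand. Capitals mark TGATTGG, the core of the Y box, and TGATGATG, letters at the X box as they stand in H2-Eb1 and H2-DMb1. Both were searched on both strands. No marked stretches overlap. The letters were chosen after these promoters had been read.
H2-Aa: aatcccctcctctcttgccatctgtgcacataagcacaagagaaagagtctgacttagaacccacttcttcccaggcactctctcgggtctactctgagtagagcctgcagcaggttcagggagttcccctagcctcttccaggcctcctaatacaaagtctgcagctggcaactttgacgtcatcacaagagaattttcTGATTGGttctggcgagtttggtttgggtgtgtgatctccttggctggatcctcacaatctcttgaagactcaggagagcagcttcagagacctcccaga
H2-Eb1: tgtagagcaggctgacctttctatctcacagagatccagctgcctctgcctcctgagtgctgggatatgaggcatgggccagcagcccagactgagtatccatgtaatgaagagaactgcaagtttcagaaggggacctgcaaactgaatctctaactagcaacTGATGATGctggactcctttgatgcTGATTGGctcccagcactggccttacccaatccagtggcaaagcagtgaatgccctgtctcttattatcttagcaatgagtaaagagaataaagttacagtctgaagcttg
H2-DMb1: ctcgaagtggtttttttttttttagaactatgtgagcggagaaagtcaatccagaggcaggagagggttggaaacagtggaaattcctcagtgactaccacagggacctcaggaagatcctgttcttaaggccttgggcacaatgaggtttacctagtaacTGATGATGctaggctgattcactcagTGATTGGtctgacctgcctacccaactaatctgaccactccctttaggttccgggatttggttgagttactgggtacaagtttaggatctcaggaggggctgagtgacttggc
H2-Oa: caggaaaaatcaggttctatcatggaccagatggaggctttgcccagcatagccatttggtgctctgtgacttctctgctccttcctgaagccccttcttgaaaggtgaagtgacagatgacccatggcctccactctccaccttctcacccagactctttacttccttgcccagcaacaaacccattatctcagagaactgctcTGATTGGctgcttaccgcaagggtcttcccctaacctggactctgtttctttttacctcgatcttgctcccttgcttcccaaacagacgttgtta
TGATTGG began 45 to 63 bases before the start in these 4 genes. It stood in 7.82% of the 32851 promoters of the table, and in at least 1 promoter of 6 of the 9 listed class II genes found there. TGATGATG began 86 bases before the start in H2-Eb1 and 89 in H2-DMb1. It stood in 1.44% of all promoters and in 2 of the 9 listed class II genes. H2-Aa and H2-Oa did not hold these exact letters, which does not show that they lack an X box. A match is a description of the letters and not a measured site.

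Class I presentation genes, which nearly all cells express, differed little. Of 10 tested, 8 were lower and 0 higher, but the median difference was -0.29, and none reached 2-fold. In a fit of the 6 arrays alone 4 were called lower. H2-D1, a classical class I heavy chain, differed by -0.44, the loading chaperone Tapbp by -0.62 and the immunoproteasome subunit Psmb9 by -0.70.

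Dendritic cell genes were lower in CD4 arrays for 13 of 15 tested identity genes and for 13 of 16 transcription factors. Itgax, which encodes the CD11c used to isolate the cells, read 7.01, 7.02 and 7.04 in CD4 arrays, against 9.73, 9.66 and 9.69 in CD11c arrays. It was lower by -2.67 (adjusted p = 4.8e-10), and the groups did not overlap. Fscn1, the actin bundler of mature dendritic cells, read 6.62, 6.27 and 5.83 in CD4 arrays, against 10.08, 9.39 and 9.95 in CD11c arrays, a difference of -3.57, the largest of the list. Ccl22, a chemokine that draws T cells, differed by -2.65, the maturation marker Cd83 by -2.29 and Flt3, the receptor on which dendritic cells depend, by -1.76. Zbtb46, a factor of conventional dendritic cells, differed by only -0.76 and read 7.27, 7.02 and 7.28 in CD4 arrays. Kit (0.66) and P2ry10 (0.83) were the 2 higher genes. Among the factors, Irf8 differed by -2.03, Batf3 by -1.74, Irf4 by -1.63, Relb by -1.64 and Spi1, which encodes PU.1, by -1.16. Nfil3 was the 1 factor called higher (0.77), but not without replicate 1 of CD11c (adjusted p = 0.061), and Klf4 and Rbpj were not called (-0.43 and -0.26).

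Genes of each dendritic cell subset were mostly lower in CD4 arrays. The cDC1 cells cross-present antigen to CD8+ T cells, and 8 of their 11 tested genes were lower. Cadm1 read 8.97, 9.66 and 9.17 in CD4 arrays, against 11.22, 11.18 and 11.03 in CD11c arrays, and Tlr3, the sensor of double-stranded RNA, differed by -2.91. Xcr1, the chemokine receptor that defines cDC1, did not pass the filter, with means of 2.82 in CD4 and 4.58 in CD11c arrays. The cDC2 cells present chiefly to CD4+ T cells, and 8 of 10 tested cDC2 genes were lower. Cd209a differed by -2.68, Clec10a by -1.97 and Sirpa by -1.79. Of 12 tested genes of plasmacytoid dendritic cells, the main interferon producers, 8 were lower. Spib differed by -2.23, Lair1 by -2.43 and Tcf4 by -1.35. Genes of these lists that were higher in CD4 arrays included Cd24a (1.31) and Ly75 (0.58) of the cDC1 list and Dtx1 (1.67) and Ltb (0.89) of the cDC2 list. Cd24a is also abundant on red cell precursors, and Dtx1 and Ltb are expressed by lymphocytes.

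Genes of sensing and degradation were lower in CD4 arrays. All 14 tested Toll-like receptors and adaptors were lower in CD4 arrays, with a median difference of -1.72. Ly96, the MD-2 partner of TLR4, read 6.01, 6.05 and 5.91 in CD4 arrays, against 8.6, 8.4 and 8.3 in CD11c arrays, a difference of -2.44 (adjusted p = 2.9e-13). Tlr7 differed by -2.17, Tlr8 by -2.12, Tlr4 by -2.0 and Unc93b1, which delivers nucleic acid sensors to endosomes, by -1.93. All 14 tested lysosomal genes were lower as well, by -0.85 for Lamp1 to -2.97 for Lgmn, the asparaginyl protease. Ctsb read 11.28, 11.34 and 11.34 in CD4 arrays, against 12.59, 12.66 and 12.54 in CD11c arrays, a difference of -1.27. Of 11 tested Fc receptors and ITAM adaptors 7 were lower, 3 were higher and 1 was not called. The higher members were Cd3e and Cd247 of the T cell receptor complex and Hcst (0.50), which encodes the adaptor DAP10. Among the lower ones Fcgr4 differed by -2.85, Fcgr1 by -2.52 and Fcgr3 by -1.72. Fcer1g, the gamma chain through which these 3 receptors signal, differed by -1.73. Tyrobp, which encodes DAP12, an adaptor of other receptors of myeloid and natural killer cells, read 11.17, 11.22 and 11.37 in the CD4 arrays and 11.85, 11.87 and 11.82 in the CD11c arrays and was not called (-0.59, adjusted p = 0.091). A fit of the 6 arrays alone gave an adjusted p of 0.00062 for the same difference.

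Receptors and ligands by which the 2 cell types meet were followed as 32 listed pairs, a T cell partner and a partner of the CD11c+ cell. Both partners were measured in 28 pairs and tested in 18. In 10 of these the T cell partner was higher and the other lower in CD4 arrays, and in 0 the reverse. Over all genes tested 41.3% were higher and 28.6% lower. Cd28 stands in 2 of the 10 pairs. The pairs were listed with earlier results of these data known, so the count only describes them. Cd28 (3.08) stood opposite Cd80 (-1.4) and Cd86 (-2.45). Cd86 read 7.08, 6.88 and 7.14 in CD4 arrays, against 9.5, 9.49 and 9.44 in CD11c arrays. Cd40lg (3.81) stood opposite Cd40 (-1.6), Flt3l (1.79) opposite Flt3 (-1.76), and Ltb (0.89) opposite Ltbr (-1.52). Il18r1 (1.18) stood opposite Il18 (-2.78), and Ifng (1.61) opposite Ifngr1 (-0.85). These are levels of whole preparations, and the part of natural killer cells in Ifng was not tested. Other pairs did not split this way. Il15ra (-1.37) and Il15 (-2.05) were both lower in CD4 arrays, as were Cxcr3 (-0.90) and Cxcl9 (-3.57), and Tgfb1 (-1.01) and Tgfbr2 (-1.06). Icosl was lower (-2.04) while Icos was not called.

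The 4 largest differences in favour of the CD4 arrays were those of Mpo, Ctsg, Car1 and Ces2g, none of them on a T cell list, and S1pr1 was the fifth. Mpo, the myeloperoxidase of the primary granules that form in early granulocyte precursors, read 11.11, 11.17 and 11.33 in CD4 arrays, against 5.44, 4.73 and 5.65 in CD11c arrays. It was 5.93 ± 0.44 higher (adjusted p = 3.6e-11), the largest difference of any gene called. Ctsg, the granule protease cathepsin G, read 8.13, 8.24 and 9.08 in CD4 arrays, against 3.29, 3.13 and 3.33 in CD11c arrays, a difference of 5.24. Elane, neutrophil elastase, read 6.6, 6.4 and 7.12 in CD4 arrays, against 3.01, 2.53 and 2.56 in CD11c arrays, and Prtn3, proteinase 3, differed by 3.82. The values of the CD11c arrays lay below the array median for Ctsg, Elane and Prtn3. Of 16 tested neutrophil genes, 15 were higher in CD4 arrays and 0 lower, with a median difference of 3.30. Genes of later granules were included. Lcn2 differed by 3.92, Ltf, lactoferrin, by 3.48, Camp, the cathelicidin, by 3.29 and Ngp by 3.31. S100a8, an abundant protein of mature neutrophils, read 11.54, 11.6 and 11.64 in CD4 arrays, against 10.1, 8.86 and 8.89 in CD11c arrays, a difference of 2.31. Csf3r, the receptor of the growth factor G-CSF, was not called (-0.26, adjusted p = 0.33). In the CD11c arrays S100a8, Camp, Ngp, Ltf, Lcn2 and Chil3 were all highest in replicate 1. The mean level of the 16 genes was 9.18, 8.97 and 9.31 in the CD4 arrays and 6.78, 5.92 and 5.95 in the CD11c arrays. In bulk samples, fewer cells of a type and less RNA per cell cannot be told apart.

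The promoters of Mpo, Elane and Prtn3 are shown, genes of 1 granule type that were higher in CD4 arrays. The promoter of Ctsg, a granule protease with a difference of 5.24, is not shown, so the choice is not complete. The printed promoters come from RefSeq on GRCm38.p6, at chr11:87793534-87793833, chr10:79886062-79886361 and chr10:79879417-79879716, all on the plus strand. Capitals mark GAGGAAGT, letters of a binding motif of PU.1, the factor encoded by Spi1, searched on both strands and chosen after these promoters had been read.
Mpo: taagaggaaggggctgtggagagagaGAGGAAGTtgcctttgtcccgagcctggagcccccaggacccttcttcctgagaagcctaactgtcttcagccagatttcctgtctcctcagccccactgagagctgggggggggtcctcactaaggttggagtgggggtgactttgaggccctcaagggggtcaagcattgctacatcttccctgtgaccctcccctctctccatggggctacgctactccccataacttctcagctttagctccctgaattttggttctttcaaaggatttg
Elane: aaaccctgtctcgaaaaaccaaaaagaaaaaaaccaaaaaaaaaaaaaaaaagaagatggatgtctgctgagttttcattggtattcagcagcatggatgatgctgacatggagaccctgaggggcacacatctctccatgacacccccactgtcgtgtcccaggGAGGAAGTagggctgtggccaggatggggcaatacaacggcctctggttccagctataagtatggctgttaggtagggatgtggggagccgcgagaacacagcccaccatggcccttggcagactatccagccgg
Prtn3: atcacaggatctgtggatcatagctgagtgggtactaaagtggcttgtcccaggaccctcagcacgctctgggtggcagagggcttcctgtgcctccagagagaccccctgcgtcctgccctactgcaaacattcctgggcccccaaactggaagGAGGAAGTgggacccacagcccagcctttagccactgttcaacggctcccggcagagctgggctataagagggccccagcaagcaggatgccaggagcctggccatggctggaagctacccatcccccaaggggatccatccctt
GAGGAAGT began 224, 85 and 95 bases before the start in Mpo, Elane and Prtn3. It stood in 3.2% of the 32851 promoters and in at least 1 promoter of 6 of the 17 listed neutrophil genes found in the table. Spi1 itself was lower in CD4 arrays (6.15, 5.96 and 5.99 in CD4 arrays, against 7.1, 7.11 and 7.39 in CD11c arrays). The match describes letters and shows no binding.

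Genes of red cell formation went both ways. Of 13 tested, 9 were higher in CD4 arrays, 2 were lower and 2 were not called. Klf1, the factor that drives the red cell programme, read 9.34, 9.05 and 9.3 in CD4 arrays, against 4.97, 5.52 and 6.0 in CD11c arrays, a difference of 3.73 (adjusted p = 6.1e-10). Gata1 differed by 3.83. Car1, a carbonic anhydrase of red cell precursors, read 9.62, 9.51 and 9.46 in CD4 arrays, against 5.25, 4.08 and 4.37 in CD11c arrays, a difference of 4.96. The membrane proteins Rhag, Ermap, Rhd and Add2 differed by 3.32, 3.25, 2.87 and 2.83, and Tfrc, the transferrin receptor that feeds iron to dividing cells, by 1.46. The lower genes both serve haemoglobin. Alas2, the erythroid enzyme that opens haem synthesis, read 7.01, 6.98 and 7.4 in CD4 arrays, against 10.18, 10.995 and 9.06 in CD11c arrays, a difference of -2.95 (adjusted p = 1.3e-06). Hba-a1, alpha globin, read 10.61, 11.01 and 11.12 in CD4 arrays, against 12.68, 12.93 and 12.4 in CD11c arrays, a difference of -1.76. Its transcript has near-identical gene copies that the probe sets may not separate. Slc4a1 and Epb42, both of the red cell membrane, were not called (0.52 and 0.51), and both ranged widely in the CD11c arrays, with 9.03, 11.13 and 10.11 for Slc4a1. Replicate 2 had the highest CD11c value of both. Without it both were called higher in CD4 arrays, Slc4a1 by 1.04 (adjusted p = 0.015) and Epb42 by 1.21 (adjusted p = 0.0084). Without replicate 1 of CD11c the differences were -0.009 and -0.29.

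**Figure D3:**
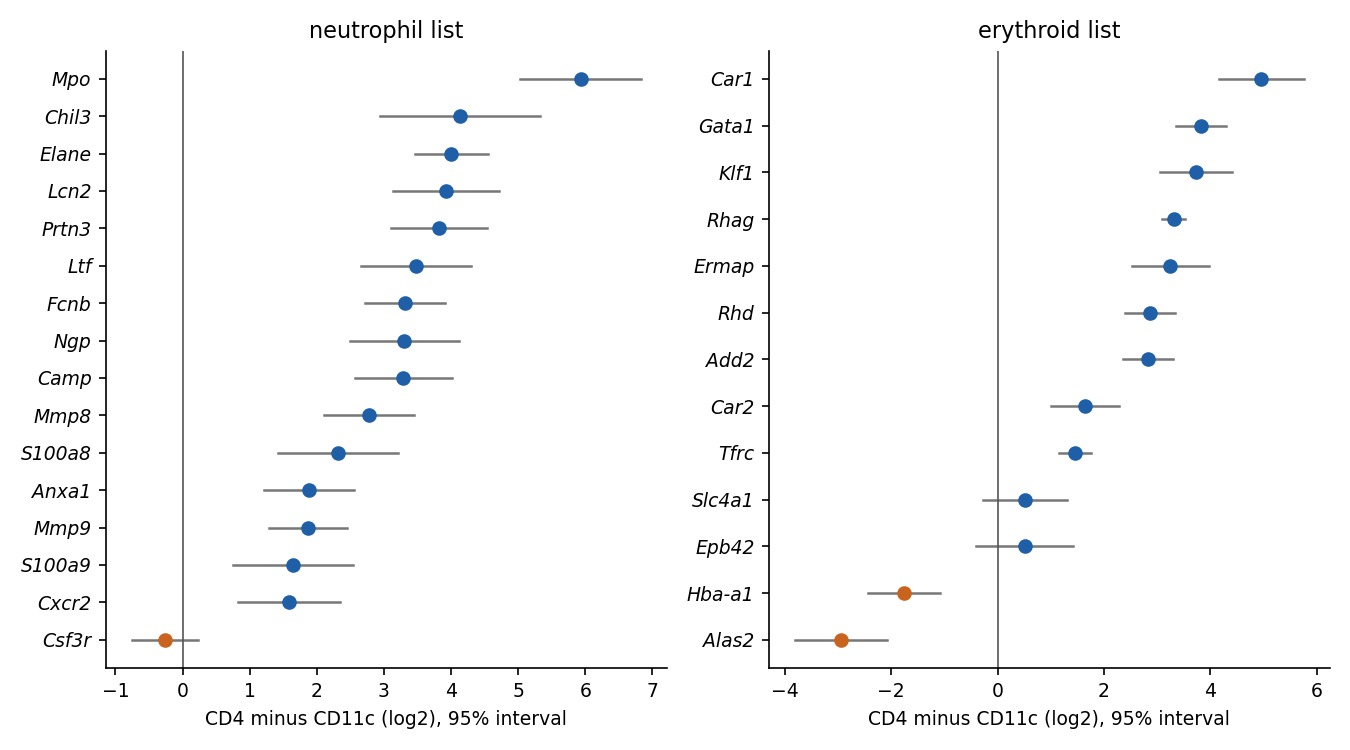
Difference between CD4 and CD11c arrays of unimmunised mice on the log2 scale for each tested gene of the neutrophil list (left) and the erythroid list (right), with 95% intervals from limma and 3 arrays per preparation. Mpo lies farthest to the right, and Alas2 and Hba-a1 lie left of 0 while Klf1, Gata1 and Car1 lie right of it.

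Markers of further immature or rare cells moved the same way. Of 8 tested mast cell and basophil genes, 7 were higher in CD4 arrays and 0 lower. Ms4a2, a chain of the IgE receptor, read 6.59, 6.6 and 6.95 in CD4 arrays, against 2.71, 3.43 and 3.23 in CD11c arrays, a difference of 3.59, and Cpa3, a mast cell protease, differed by 3.24. Gata2, a factor of stem cells and mast cells, differed by 3.42. Vpreb1, part of the surrogate light chain of B cell precursors, read 8.21, 8.15 and 7.97 in CD4 arrays, against 3.7, 4.02 and 3.91 in CD11c arrays, a difference of 4.24 (adjusted p = 2.3e-11). Dntt, the polymerase that adds bases at receptor joints in lymphocyte precursors, differed by 2.88. Without RAG2, cells of the B lineage can reach the precursor stage but not pass it. Rag2 was not called (5.6, 5.57 and 5.41 in CD4 arrays, against 4.83, 5.43 and 5.08 in CD11c arrays; 0.41, adjusted p = 0.059), but passed without replicate 2 of CD11c (adjusted p = 0.019) and in a fit of the 6 arrays alone (adjusted p = 0.039). The sources used here do not say whether its probe set lies in the deleted stretch, so it checks nothing.

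Mature B cells were not seen in either preparation by their main markers. The means of Ms4a1, Pax5, Ebf1 and Ighm lay below the array medians in both, with Ms4a1 means of 4.11 in CD4 and 4.37 in CD11c arrays. Of the 7 B cell genes tested 6 were lower in CD4 arrays, among them Blnk (-2.76), Bank1 (-2.65) and Cd79b (-2.02), while Cd79a was higher (0.73). Blnk and Bank1 are also expressed by other antigen-presenting cells. Natural killer genes were readable in both preparations. Of 10 tested 6 were higher in CD4 arrays, by at most 0.99, and 1 was lower, Fcer1g (-1.73), a chain that macrophages share. Gzma, a granule protease, read 11.22, 11.3 and 11.31 in CD4 arrays, against 10.2, 10.14 and 10.51 in CD11c arrays, and Ncr1, the receptor NKp46, read 7.41, 7.1 and 7.13 in CD4 arrays, against 6.38, 6.32 and 7.11 in CD11c arrays (adjusted p = 0.036). The call of Ncr1 was lost without replicate 1 or 3 of CD4 or replicate 1 or 2 of CD11c (adjusted p of 0.053 to 0.15). Klrk1 was not called (-0.14, adjusted p = 0.63). Of 14 measured genes of stroma and vessels 12 did not pass the filter, and 11 had means below the array medians in both preparations. Of the 2 tested, Pecam1, an adhesion molecule of endothelium and some leukocytes, was lower in CD4 arrays (-0.95).

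Red pulp macrophage genes were all lower in CD4 arrays yet readable in them. All 12 measured genes were tested and called lower, with a median difference of -2.38. Spic, the factor of these macrophages, read 8.23, 8.39 and 8.32 in CD4 arrays, against 10.88, 10.63 and 10.67 in CD11c arrays, a difference of -2.42 (adjusted p = 2.2e-10). C1qa, a subunit of complement C1q, read 8.43, 8.64 and 8.52 in CD4 arrays, against 10.86, 10.95 and 10.98 in CD11c arrays, which puts the CD4 level at 19% of the CD11c level. Slc40a1, the iron exporter ferroportin, differed by -1.39, and Hmox1, which breaks down haem, by -2.37. The mean level of the 12 genes was 8.22, 8.52 and 8.33 in the CD4 arrays of unimmunised mice, against 3.43 to 5.35 in the 12 CD4 arrays of the other treatments. Those 12 came from lymph nodes alone, so tissue and treatment cannot be told apart. In the CD11c arrays of unimmunised mice the mean level was 10.63, 10.59 and 10.68. Macrophage genes that CD11c cells share ran likewise, with Csf1r at -2.42, Mertk at -2.61 and Adgre1, which encodes F4/80, at -2.43. Lyz2, Ly6c1 and F13a1, which monocytes and granulocyte precursors also express, were higher in CD4 arrays (0.82, 1.37 and 3.47). Lyz2 was not called when any 1 array other than replicate 1 of CD4 was left out (adjusted p of 0.063 to 0.11). The part of these macrophage transcripts in the class II and lysosome levels of either preparation was not tested.

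**Figure D4:**
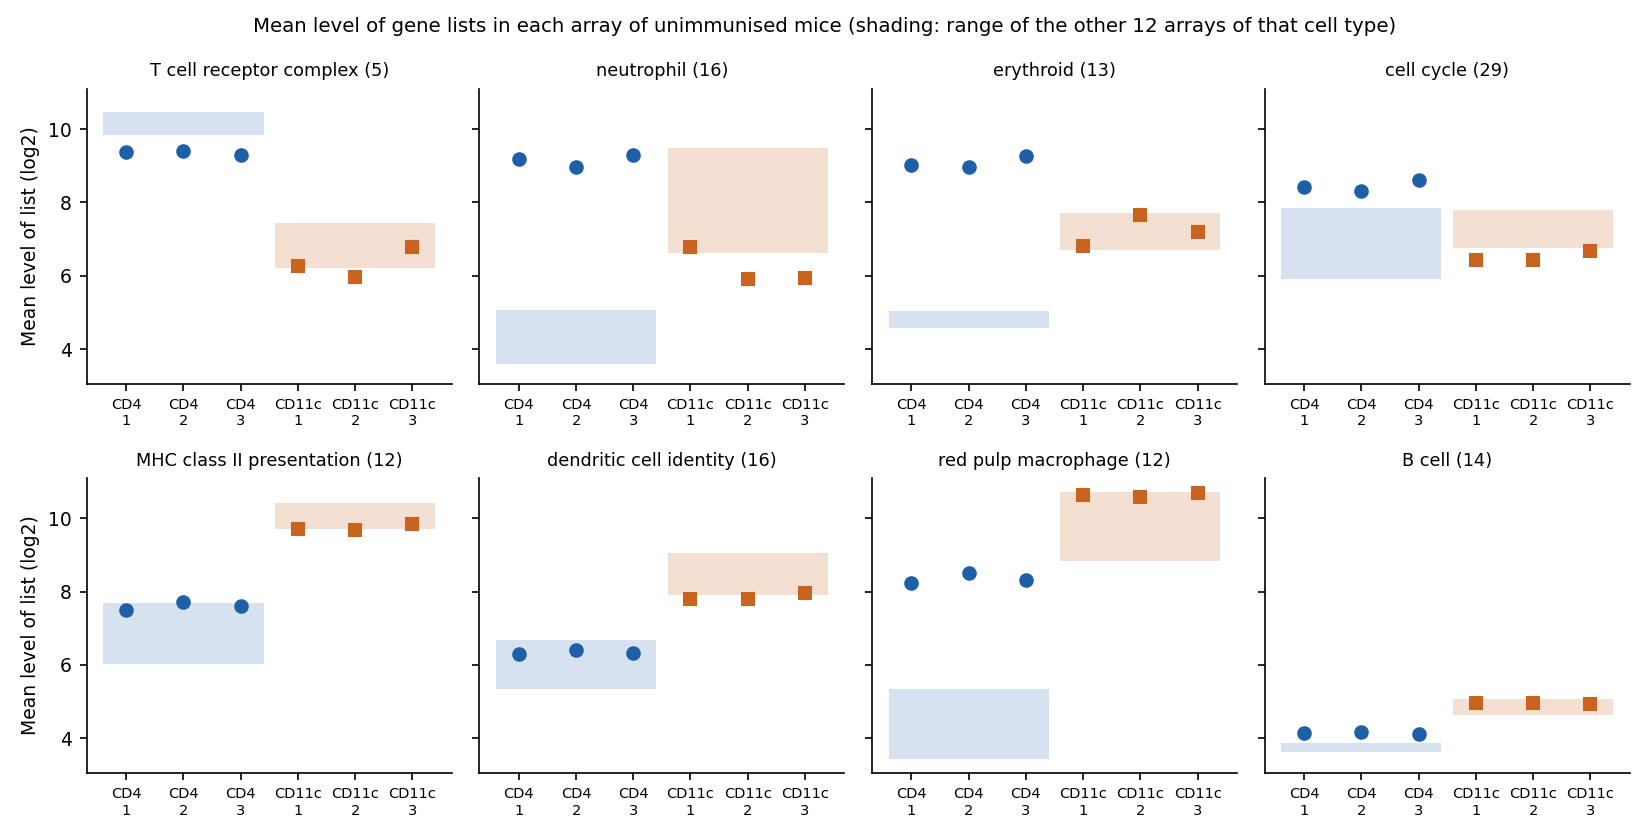
Mean log2 level of 8 gene lists in each of the 3 CD4 arrays (circles) and 3 CD11c arrays (squares) of unimmunised mice, with the number of measured members in each title. The shaded bands span the 12 arrays of the same cell type from the other treatments. Neutrophil, erythroid, cell cycle, red pulp macrophage and B cell levels of the CD4 arrays lie above their band, and T cell receptor levels below it. The B cell means of the CD4 arrays are below the array medians.

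Cell division genes were higher in CD4 arrays for 28 of 29 tested, with 0 lower and a median difference of 2.05. Mki67, the proliferation antigen, read 11.21, 11.21 and 11.27 in CD4 arrays, against 9.37, 9.86 and 10.09 in CD11c arrays, a difference of 1.46. Cdc6, which licenses replication origins, differed by 2.8, the cyclin Ccnb2 by 2.7, Tyms, which makes thymidylate, by 2.65 and Cdk1 by 2.44. E2f1 was the member not called (0.12, adjusted p = 0.4), though the mean of its probe sets was (adjusted p = 0.0013). The neutrophil and erythroid lists were higher in the same 3 arrays, by 3.30 and 2.83 in the median, and their part in the cell division genes was not tested. All 29 tested genes of cytosolic ribosomal proteins were higher as well, with a median difference of 0.45. These genes have many pseudogenes, which the probe sets may not separate. Rpl8 differed by 0.83, Rps19 by 0.86 and Rpl3 by 0.30, and Rpl14 at 1.54 was the 1 member past 2-fold. Glycolysis genes gave 8 higher and 2 lower of 13. The hexokinases differed by isoform, with Hk1 higher (2.9) and Hk2 and Hk3 lower (-0.50 and -1.1). Gapdh was not called (-0.07).

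Survival genes of the BCL2 family went both ways, with 3 higher and 5 lower of 10 tested, or 3 lower without replicate 2 of CD11c. Bcl2, which keeps lymphocytes alive, read 9.85, 9.77 and 9.86 in CD4 arrays, against 7.87, 8.08 and 8.46 in CD11c arrays, a difference of 1.69. The killers Pmaip1 (-2.01) and Bmf (-1.26) were lower in CD4 arrays. Another probe set of Bmf, the highest over the 6 arrays, differed by -0.12 and was not called (adjusted p = 0.59). Bcl2l11, which encodes BIM, was higher (0.54). Interferon response genes were lower in 8 and higher in 2 of 14 tested, or in 1 without replicate 3 of CD4 or replicate 2 of CD11c. Rsad2, the antiviral enzyme viperin, read 8.36, 8.56 and 8.65 in CD4 arrays, against 10.59, 11.39 and 10.42 in CD11c arrays, a difference of -2.28, and Mx1 differed by -1.46. Zbp1, a sensor of nucleic acid, was higher by 1.11.

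Outside the lists, the 15 largest differences in each direction included further genes. Higher in CD4 arrays were Ces2g, a carboxylesterase (4.81), Col5a1, a collagen chain (4.31), Trib2, a pseudokinase (4.24), Mns1 (4.14), Bex4 (4.12), Tdrp (4.04) and Asns, asparagine synthetase (4.01). Trib2 and Tdrp averaged 8.67 and 10.13 in the CD4 arrays of unimmunised mice, against 9.39 and 10.28 in those of the other treatments. Ces2g (4.13), Col5a1 (3.35), Bex4 (3.01) and Asns (4.53) lay near the array median or below it there. Lowest in CD4 arrays was Car3, a carbonic anhydrase of muscle and fat, which read 4.8, 5.28 and 5.26 in CD4 arrays, against 9.61, 9.34 and 9.57 in CD11c arrays, a difference of -4.39 (adjusted p = 7.2e-11). Fabp4, the fatty acid carrier of fat cells and macrophages, differed by -3.61 and the carbonyl reductase Cbr2 by -3.57. Ubd, a ubiquitin-like modifier (-3.63), Cxcl9, an interferon-gamma induced chemokine (-3.57), Dnase1l3, a nuclease of dendritic cells and macrophages (-3.37), Mmp12, macrophage elastase (-3.31), and Havcr2, which encodes TIM-3 (-3.13), were also among the 15. The rest were Dgki (-3.54), Ctnnd2 (-3.34), Rims3 (-3.3), Lrp4 (-3.21), Prss29 (-3.19) and Palld (-3.1), several of which are better known from neurons.

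Replicate 2 of CD11c carried genes of another tissue. Amy1, salivary amylase, read 3.37, 2.36 and 2.35 in CD4 arrays and 4.26, 12.15 and 2.31 in CD11c arrays. Bpifa2, a secreted protein of the parotid gland, read 3.84, 2.92 and 2.6 in CD4 arrays and 4.46, 12.21 and 2.85 in CD11c arrays. Smr3a, Car6 and Wfdc12 were high in that array alone of the 6, at 2.74, 11.32 and 2.92, 3.54, 10.08 and 3.41 and 3.71, 9.08 and 3.7 in the CD11c arrays. Of 13 measured gland genes 2 passed the filter, so most were not tested. Among the CD11c arrays of the other treatments Amy1 exceeded the array median in 5 of 12, up to 11.43, and among the CD4 arrays in 0 of 12. Cervical lymph nodes lie against the salivary glands, but the origin of these transcripts was not tested. Leaving out this array moved the count of genes lower in CD4 arrays to 2744, in place of 2833.

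**Figure D5:**
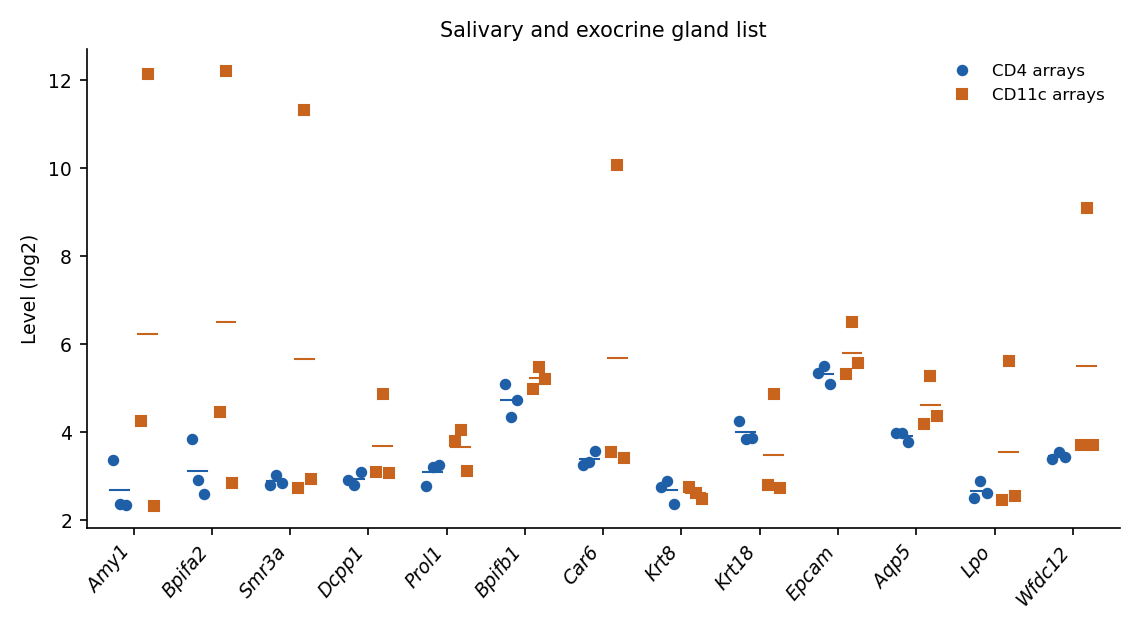
Log2 level of the 13 measured genes of the salivary and exocrine gland list in the 3 CD4 arrays (circles) and 3 CD11c arrays (squares), with bars at the means. Amy1, Bpifa2, Smr3a, Car6 and Wfdc12 lie far above the rest in 1 CD11c array, replicate 2.

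The gap between the preparations in unimmunised mice was set against the mean gap in the 4 other treatments. Lymph nodes pooled with spleen gave the CD11c cells of every group, but the CD4 cells of the other treatments came from axillary or mesenteric lymph nodes, so tissue and treatment cannot be told apart here. The Y-linked gene Eif2s3y lay below the array median in all 6 arrays of unimmunised mice, but above it in 6 of the 12 CD4 arrays and 6 of the 12 CD11c arrays of the other treatments, with levels up to 8.96 in CD4 and 8.76 in CD11c arrays. The cell types were not matched in this within each treatment. In tolerised mice Eif2s3y read 8.84 to 8.96 in CD4 and 2.4 to 2.84 in CD11c arrays. In primed mice given control IgG it read 2.42 to 2.65 in CD4 and 5.92 to 8.76 in CD11c arrays. The gap in those treatments thus also spans a difference in Y-linked transcripts, whose part in the interaction was not tested. No label says whether mice were male or female. The part of the gland genes in the interaction was not tested. Of the 9914 genes 5549 were called in this interaction, 56%. The gap was more positive in unimmunised mice for 3694 genes, 37.3%, and more negative for 1855, 18.7%. That is 66.6% of the called genes in the positive direction, against 54.2% after quantile normalization had been run again and 52.8% with no filter on low values. Without that filter, which reads the 6 arrays of unimmunised mice alone, the gap was more positive for 3870 genes and more negative for 3461. Against abatacept-treated primed mice alone, whose CD4 and CD11c arrays also had Eif2s3y below the median, 5144 genes were called, 3633 more positive and 1511 more negative, in a comparison chosen after the data had been seen. All 16 neutrophil genes and all 12 red pulp macrophage genes were more positive, as were 12 of 13 erythroid and 28 of 29 cell division genes. Mpo averaged 11.2 ± 0.11 in CD4 and 5.27 ± 0.48 in CD11c arrays of unimmunised mice (SD, n = 3 each), and 4.07 and 6.64 in those of the other treatments, an interaction of 8.5 (adjusted p = 1.3e-12). The class II gap was less negative in unimmunised mice for 9 of 12 genes, with H2-Ab1 at 2.9, and more negative for H2-Oa (-1.02). Of the 5 genes of the T cell receptor complex 1 was called, Trat1 (-0.96), while Cd3e was not (-0.18, adjusted p = 0.6; 0.15 without replicate 3 of CD11c). Of 14 signalling genes 10 were more negative in unimmunised mice, and of 13 surface genes 8. Cd6, a surface receptor that tunes signalling, averaged 5.54 ± 0.12 in CD4 and 4.0 ± 0.24 in CD11c arrays of unimmunised mice, and 8.22 and 4.16 in the others (-2.51, adjusted p = 1.6e-09). Cd5 likewise had -2.31. Ctla4, not tested, averaged 3.55 in CD4 arrays of unimmunised mice and 9.4 in those of the other treatments.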

How the data were processed

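RNA of each sample was hybridised to 1 Affymetrix mouse PM array, after amplification from 50 ng, per the labels' protocols. The deposited log2 values come from RMA by the authors, per the submitters' processing notes (version not given in the sources used here), which corrects background, makes the distributions of the arrays alike and summarises probes. That scaling hides a change in total RNA. The 45118 probe sets were named from the platform annotation; 28898 had 1 symbol, 551 several and 15669 none. Of the named ones 28689 matched RefSeq. Each gene was read from 1 probe set, that of highest mean level over the 30 arrays. Of 4121 genes with several tested probe sets, 69 had sets called in opposite directions.

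Samples were grouped by their labels. limma 3.58.1 in R 4.3.3 fitted the 10 groups of 30 arrays (lmFit and eBayes, 20 residual degrees of freedom), and the contrast was CD4 minus CD11c in unimmunised mice. The interaction took from it the mean of the same difference in the 4 other treatments. Genes were tested where their level exceeded the array's median on 3 or more of the 6 arrays, and p-values were adjusted over all of them by Benjamini-Hochberg. In simulated data on these 9914 genes, 50 genes each were changed by 0.5, 1, 2 or -1 on the log2 scale, and no others. In this contrast the fit called 64%, 94% and 100% of those raised by 0.5, 1 and 2, and 88% of those lowered. A far larger share was called in the data, 69.8%, so these rates need not hold there. The 6 arrays held no pair of identical values, and 3 arrays a group limit the precision. Genes named are members of the lists or pairs, the 15 largest differences in each direction among called genes whose arrays did not overlap, and the 8 largest interactions each way. The members and the 36 lists, of 518 genes with 444 measured, were chosen with earlier results of these data known. The alternatives tried were the filter, normalization, array weights, replicate block, probe set rule, threshold, leaving out each array, a fit of the 6 arrays alone and, for the interaction, primed mice alone as the comparison. Abatacept-treated primed mice alone were added after seeing the data. Promoters came from RefSeq. The plots used matplotlib 3.10.9 under Python 3.11.15.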

Additional observations from a re-analysis of the deposited data

Results flagged for a closer look

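The gap between CD4 and CD11c arrays in unimmunised mice differed from the mean gap in the 4 other treatments for 5549 genes, by limma's interaction term. The 8 largest positive interactions were all granulocyte genes. They were 9.82 for Ngp, 9.77 for Lcn2, 9.57 for Camp, 9.07 for Chil3, 8.96 for Ltf, 8.78 for S100a8, 8.5 for Mpo and 8.1 for Cd177. Ngp averaged 11.16 ± 0.08 in CD4 and 7.86 ± 0.96 in CD11c arrays of unimmunised mice (SD, n = 3 each), against 3.75 and 10.27 in those of the other treatments (interaction 9.82, limma adjusted p = 2.1e-14).

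The 8 largest negative interactions were -3.1 for Izumo1r, -3.04 for Icos, -2.82 for Syp, -2.67 for Gm8369, -2.51 for Cd6, -2.44 for Ephx1, -2.42 for Ikzf2 and -2.42 for Syt11. Izumo1r, Icos and Ikzf2, which encodes Helios, are genes of regulatory or activated T cells. Icos averaged 7.05 ± 0.06 in CD4 and 7.13 ± 0.05 in CD11c arrays of unimmunised mice, against 10.78 and 7.82 in the others. In these contrasts tissue and treatment of the CD4 cells cannot be told apart, and Y-linked transcripts also differed between arrays, as given with the interaction above.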

How the results depend on the processing

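The count of genes called between the preparations was 6452 to 7899 under the alternatives other than the stricter threshold, with 6008 at an adjusted p under 0.01. Leaving out 1 array gave 6472 to 6714 called, 3742 to 4035 higher and 2649 to 2744 lower in CD4 arrays, 1012 to 1150 at least 2-fold higher, 1138 to 1160 at least 2-fold lower, and 4992 to 5309 in the interaction. Genes with a more negative interaction numbered 1855, against 3461 with no filter on low values, where more genes are tested, and 1216 at an adjusted p under 0.01. Called interactions were positive in 66.6%, against 52.8% without the filter. With primed mice alone as the comparison 4269 interactions were called, 2854 positive and 1415 negative, and with abatacept-treated primed mice alone 5144. All 21 interactions of named genes kept their direction and call in both.

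The values that changed sign were those of genes not called. With 1 array left out, the difference was -0.29 to 1.21 for Epb42 and -0.009 to 1.04 for Slc4a1, both negative without replicate 1 of CD11c. The interaction of Cd3e was -0.37 to 0.15, positive without replicate 3 of CD11c. Gapdh passed after quantile normalization again (adjusted p = 0.037 by limma), and Rbpj and Klf4 in a fit of the 6 arrays (adjusted p = 0.033 and 0.0091). With no filter on low values Cd44, Lyz2 and Zbtb7b were not called (adjusted p = 0.053, 0.053 and 0.055 by limma), and in the fit of the 6 arrays Cd44 and Zbtb7b were not (0.052 and 0.13). The natural killer list had 3 higher genes at an adjusted p under 0.01.

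Replicate numbers did not pair the samples: same-numbered CD4 and CD11c arrays had deviations correlated at -0.03, -0.024 and -0.025. No array correlated best with its own number. The replicate block gave 6762 called and 5203 in the interaction, and Cd44 and Ncr1 were no longer called (adjusted p = 0.076 and 0.063).

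Array signal near the median limits the low genes, and 7183 genes were not tested.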

Other observations

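Platelet and megakaryocyte genes were near background, with 3 of 10 measured tested. Itgb3, an integrin chain of platelets that other cells also use, read 9.65, 9.77 and 9.41 in CD4 arrays, against 7.1, 7.47 and 7.67 in CD11c arrays, a difference of 2.19 (limma adjusted p = 9.7e-13). Pf4, a platelet chemokine, differed by 0.99. Of the plasma cell list Xbp1, a factor of the secretory pathway, was -1.07 in difference, lower in CD4 arrays, and Prdm1, which encodes BLIMP-1, -0.66, while Jchain lay below the array medians with means of 2.16 in CD4 and 2.13 in CD11c arrays.

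The NADPH oxidase subunits went different ways. Cyba was lower in CD4 arrays (-0.94), Rac2, the GTPase of the complex in blood cells, was higher (0.73), and Cybb read 10.05, 10.12 and 10.12 in the CD4 arrays and 10.7, 10.65 and 10.73 in the CD11c arrays without being called (-0.60, adjusted p = 0.075), though a fit of the 6 arrays and one with array weights called it (adjusted p = 0.00041 and 0.047). Of the 7 tested costimulatory ligands Cd274, which encodes PD-L1, differed by -1.26. Cd70, Tnfsf4 and Tnfsf9 had means below the array medians in both preparations.

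Xist, read from the inactive X chromosome, was 11.28, 11.34 and 11.07 in CD4 arrays, against 11.52, 11.37 and 11.4 in CD11c arrays, with a difference of -0.20 (adjusted p = 0.79), and the Y-linked Eif2s3y had means of 2.56 in CD4 and 2.59 in CD11c arrays. In the other treatments Eif2s3y read 2.41 to 8.96 in CD4 and 2.37 to 8.76 in CD11c arrays, and Xist 5.61 to 11.43 in CD4 and 4.12 to 11.33 in CD11c arrays.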
